A study of Mus musculus with 9 samples.

Results

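The BCL2 family regulators of apoptosis were examined in mouse spermatids as 10 genes: Bcl2, Bcl2l1, Bcl2l11, Mcl1, Bax, Bak1, Bok, Bid, Bad and Bbc3. A probe was taken as a member where the array platform's annotation gave it 1 of these 10 symbols, which found 27 of 45279 probes and covered 9 of the 10 genes. Bax had 0 probes under its symbol in that annotation and was not analysed here. RNA of spermatids, the haploid germ cells that mature into sperm, was measured on 9 Illumina Mouse WG-6 v2.0 arrays, 3 for each genotype. Wild type mice (labelled Wip1+/+) were compared with Wip1-/- mice, which lack the phosphatase encoded by Ppm1d, and with Wip1-/- Atm+/- mice, which carry that deletion and have also lost 1 copy of Atm, a kinase of the DNA damage response whose targets Wip1 dephosphorylates. The sources used here do not state strain, age or the way spermatids were isolated. The labels number the arrays of a genotype without saying that they came from separate animals, so the p-values measure only the spread between arrays, which may be technical.

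BCL2 family proteins decide whether the outer membrane of mitochondria stays intact. Bcl2, Bcl-xL (the product of Bcl2l1) and Mcl1 protect the membrane, and Bax, Bak1 and Bok open it. The BH3-only proteins Bid, Bad, Bim (Bcl2l11) and Puma (Bbc3) sense stress and act on the protective class. Some of them also act on Bax and Bak1. Once cytochrome c has leaked out, Apaf1 and caspase 9 start the caspase cascade. In the testis apoptosis removes surplus and damaged germ cells, and Bax and Bcl-xL are known for setting their number in the first wave of spermatogenesis.

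The title of the series names DNA methylation, whose substrate is the CpG dinucleotide. The promoters of 3 of the 4 members that the F test below called are therefore shown, and those of Bcl2l1 are not. Methylation was not measured on these arrays. The sequences are from RefSeq on GRCm38.p6, each 300 bases long, from 250 bases before to 50 after an annotated start, read 5′ to 3′ on the strand of the gene with each CpG in capitals. The Bok promoter lies at chr1:93685325-93685624 on the plus strand, the Bid promoter at chr6:120916775-120917074 on the minus strand, and Bcl2l11 has 2 starts, at chr2:128125788-128126087 and chr2:128127325-128127624 on the plus strand.
Bok: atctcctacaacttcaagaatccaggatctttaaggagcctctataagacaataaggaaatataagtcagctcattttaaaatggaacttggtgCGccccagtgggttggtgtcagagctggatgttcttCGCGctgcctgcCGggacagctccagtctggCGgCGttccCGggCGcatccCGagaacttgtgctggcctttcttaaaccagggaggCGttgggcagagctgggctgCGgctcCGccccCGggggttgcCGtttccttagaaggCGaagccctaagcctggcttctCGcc
Bid: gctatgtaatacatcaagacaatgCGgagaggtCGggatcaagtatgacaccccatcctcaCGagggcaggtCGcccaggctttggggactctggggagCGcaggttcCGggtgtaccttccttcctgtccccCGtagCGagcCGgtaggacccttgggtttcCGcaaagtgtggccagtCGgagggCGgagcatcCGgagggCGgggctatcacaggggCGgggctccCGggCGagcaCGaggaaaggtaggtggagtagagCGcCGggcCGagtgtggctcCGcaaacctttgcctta
Bcl2l11 start 1: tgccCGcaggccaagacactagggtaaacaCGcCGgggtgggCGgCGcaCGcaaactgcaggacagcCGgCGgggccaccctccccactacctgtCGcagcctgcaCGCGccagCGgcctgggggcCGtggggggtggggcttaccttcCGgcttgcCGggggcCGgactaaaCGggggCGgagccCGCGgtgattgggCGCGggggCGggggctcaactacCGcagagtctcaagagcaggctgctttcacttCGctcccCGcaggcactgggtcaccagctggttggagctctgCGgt
Bcl2l11 start 2: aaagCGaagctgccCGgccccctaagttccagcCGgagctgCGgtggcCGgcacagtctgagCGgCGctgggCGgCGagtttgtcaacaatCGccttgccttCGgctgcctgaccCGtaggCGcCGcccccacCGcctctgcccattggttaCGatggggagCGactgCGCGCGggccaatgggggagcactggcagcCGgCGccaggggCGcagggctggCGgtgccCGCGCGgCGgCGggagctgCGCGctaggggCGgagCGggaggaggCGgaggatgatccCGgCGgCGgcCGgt
The Bok promoter held 16 CpG, the Bid promoter 22, and the Bcl2l11 promoters 27 and 38, against a median of 7 over 32851 RefSeq promoters of the same length. That set leaves out 1 chromosome, on which no member lies, and is called all promoters below. Of all promoters, 67% held fewer CpG than that of Bok. All 10 genes had at least 1 of 16 promoter entries, and their CpG counts ran from 1 to 44, the latter at Bcl2. The 3 starts of Bcl2l1 held 1, 14 and 22. The GC box GGGCGG, searched on both strands, stood in 11 of the 16 entries and in 35.7% of all promoters. The cAMP response element TGACGTCA, a motif bound by the spermatid factor Crem, stood in 0 of the 16 and in 1.79% of all promoters. The TATA box TATAAA was in 0 of the 16 against 13.6% of all, and the p53 half-site was in 1, that of Bax, against 8.36% of all. These matches describe the letters of the window only.

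Whether the array saw a member at all depended on the gene. A probe counted as detected on an array where its deposited detection p-value was below 0.05, and it was tested where it was detected on at least 3 of the 9 arrays. Of the 27 member probes, 25 had complete scanner values and 13 of these, of 7 genes, were tested, among 18867 tested probes of the whole array. Bcl2, the founding survival gene, had 9 probes, and all 9 were undetected on all 9 arrays. The 2 probes with blank scanner values, the single Bak1 probe and 1 of the 3 Bbc3 probes, were read from the authors' processed table. A gene is described by its brightest detected probe, and levels are given as log2 of the background-corrected, quantile-normalized intensity, a scale on which the levels of different probes are not compared. Because this is bulk RNA, fewer cells of a type and less RNA per cell cannot be told apart in any of the differences below.

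The labels were checked against the targeted genes. The brightest Ppm1d probe fell by 0.66 in Wip1-/- (adjusted p = 0.00639 by limma) and differed from wild type by 0.10 in the arrays labelled Wip1-/- Atm+/- (adjusted p = 0.611), which goes against that label. A second Ppm1d probe was detected on all 3 Wip1-/- arrays and on 0 arrays of either other genotype. Its group means were 6.02 (Wip1-/-), 4.79 (wild type) and 4.92 (labelled Wip1-/- Atm+/-). The last group differed from wild type by 0.14 (adjusted p = 0.547 by limma) and from Wip1-/- by -1.10 (adjusted p = 0.000282). This second probe met the detection filter only through Wip1-/-, so the latter call was favoured by the filter. The third tested Ppm1d probe differed from wild type by -0.35 in the labelled arrays (adjusted p = 0.107 by limma). For Atm, 1 probe fell by 0.71 and another rose by 1.03 in the arrays labelled Wip1-/- Atm+/-. The position of these probes relative to the deleted parts is unknown here, so directions drawn from that label keep this limit. Erythroid markers, 4 tested of 7 listed, summed to 333 to 378 in wild type, 579 to 639 in Wip1-/- and 2201 to 2514 in the arrays labelled Wip1-/- Atm+/-. Correlations between arrays were 0.987 to 0.993 within a genotype and 0.958 to 0.982 between genotypes. On an array 41.3% to 42.0% of probes were detected in Wip1-/- and 37.9% to 39.8% in the other genotypes. The lowest log2 level of a detected probe was 5.38 to 5.40 in Wip1-/- and 5.48 to 5.59 elsewhere. A probe of the same level could therefore count as detected in Wip1-/- and not in the others, which limits the detection counts below.

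In Wip1-/- spermatids 2 of the 7 tested members changed against wild type, Bok upward and Bcl2l11 downward, where 18.0% of all 10556 genes tested were called (10.3% higher, 7.71% lower). Against wild type, the arrays labelled Wip1-/- Atm+/- had 3 changed members, Bok upward and Bcl2l1 and Bid downward, where 28.2% of all genes were called (15.0% higher, 13.2% lower). Between these arrays and Wip1-/- 3 members changed as well, Bok and Bcl2l11 upward and Bid downward, where 33.6% of all genes were called (16.3% higher, 17.3% lower). Calls rest on limma with Benjamini-Hochberg adjustment over all tested probes at 0.05. The median log2 difference over the 7 members was 0.09, -0.20 and 0.08 in these 3 comparisons, against 0.04, -0.03 and -0.02 over all genes. The Bid probe met the detection filter mostly through Wip1-/-, the group where it is highest, so its call against Wip1-/- was favoured by the filter. The F test of limma called Bok, Bid, Bcl2l11 and Bcl2l1 among the 7 members, and 41.1% of all genes. Groups without overlap, named for several members below, were found in 38.0%, 41.3% and 49.3% of all genes in the 3 comparisons. The comparisons share arrays, so a change in 1 genotype enters 2 of them.

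**Figure D1:**
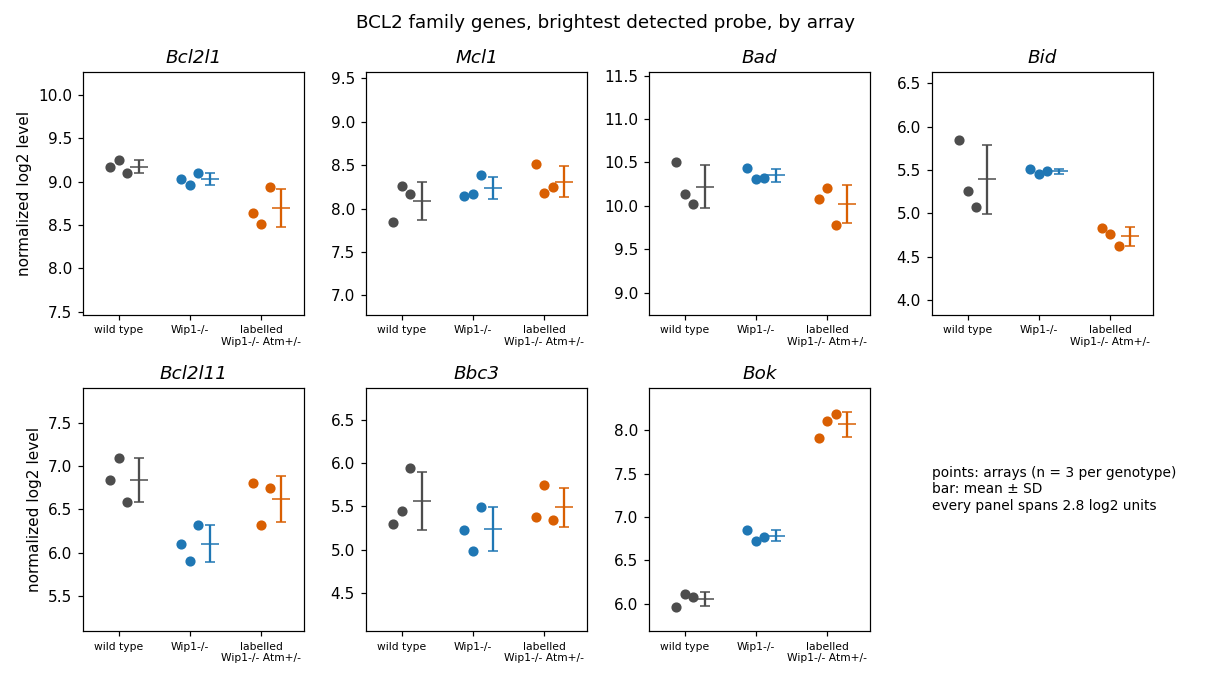
Normalized log2 level of the brightest detected probe of the 7 tested BCL2 family genes on each array, with 1 panel a gene, 1 point an array and a bar for the mean ± SD of 3 arrays. Only in the Bok panel does each genotype stand apart from both others, with means of 6.05, 6.79 and 8.07.

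Among the protective members, Bcl2l1 was lower in the arrays labelled Wip1-/- Atm+/-. Its brightest probe read 9.17, 9.25 and 9.10 in wild type, 9.03, 8.96 and 9.11 in Wip1-/-, and 8.64, 8.52 and 8.94 in the arrays labelled Wip1-/- Atm+/-. Each of the last 3 arrays lay below all 6 others, while wild type and Wip1-/- overlapped. The difference from wild type was -0.47 (SE 0.13, adjusted p = 0.0188 by limma) and that from Wip1-/- was -0.33 (adjusted p = 0.0723, called under 3 of 18 alternatives). Bcl2l1 is the 1 member with 4 probes detected on every array, and all 4 had lower means in the arrays labelled Wip1-/- Atm+/- than in either other genotype. Of the other 3 probes, ILMN_2647885 differed by -0.82 from wild type (SE 0.17, adjusted p = 0.00405 by limma) and by -0.77 from Wip1-/- (adjusted p = 0.00488), without overlap with either. The remaining pair differed from wild type by -0.45 and -0.34 and did not pass the test. The fall of the brightest probe was lost when wild type array 2 or labelled array 1 or 2 was left out, with adjusted p of up to 0.0711 by limma.

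Mcl1, a protective protein with a short half-life, did not pass the test in any comparison. Its probe read 7.84, 8.26 and 8.17 in wild type, 8.15, 8.17 and 8.38 in Wip1-/-, and 8.51, 8.18 and 8.24 in the arrays labelled Wip1-/- Atm+/-. The 3 genotypes overlapped, with means of 8.09, 8.24 and 8.31 and an SE of 0.15 for each difference. Bcl2 stayed near the floor of the array: its 9 probes lay between 63.8 and 122.9 units of scanner intensity over all arrays, where the array medians were 100.5 to 121.8. With no filter on detection, limma called its brightest probe (means of 4.82, 4.93 and 5.23) higher in the arrays labelled Wip1-/- Atm+/- than in wild type.

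Among the proteins that open the membrane, Bok gave the widest spread of the tested members and was higher at each step from wild type to Wip1-/- to the arrays labelled Wip1-/- Atm+/-. Its detected probe, ILMN_2772077, read 138.4, 136.9 and 144.1 units of scanner intensity in wild type, 224.2, 213.9 and 189.5 in Wip1-/-, and 318.1, 304.0 and 316.4 in the arrays labelled Wip1-/- Atm+/-. After normalization the log2 levels were 5.96, 6.12 and 6.08, then 6.85, 6.73 and 6.77, then 7.91, 8.11 and 8.19. None of the 3 genotypes overlapped with another on either scale. Bok rose 1.66-fold in Wip1-/- (log2 difference 0.73, SE 0.12, adjusted p = 0.00206 by limma) and 4.04-fold in the arrays labelled Wip1-/- Atm+/- (log2 difference 2.01, adjusted p = 3.12e-07). The step between the mutants was 2.43-fold (log2 difference 1.28, adjusted p = 1.66e-05 by limma). All 3 calls held under each of 18 alternative settings, in which the difference from wild type ran from 0.38 to 0.92 for Wip1-/- and from 1.26 to 2.09 for the other mutant. A second Bok probe, ILMN_1237404, was undetected on all arrays.

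Across all genes, 343 of 10556 (3.25%) were called higher at both of these steps, and 8 of the 343 were markers of stroma. By the root mean square difference of mean-centred log2 levels over the 9 arrays, the genes whose pattern was most like that of Bok among 4338 compared were Zyx (0.0929), Gas6 (0.110) and Cnrip1 (0.113). Zyx encodes the focal adhesion protein zyxin, and Gas6 encodes a ligand of the TAM receptor kinases. Cnrip1 had means of 4.81 in wild type and 5.39 in Wip1-/-, at or below the lowest level of detected probes there. The size of its first step is therefore uncertain. Markers of smooth muscle, fibroblasts and endothelium had, in their sum, the same order of genotypes as Bok. The summed intensity of the 14 tested stromal markers of a list of 19 was 5057 to 5124 in wild type, 11672 to 12746 in Wip1-/- and 27268 to 27364 in the arrays labelled Wip1-/- Atm+/-. Of these 14 markers, 11 rose in Wip1-/- and 12 in the other mutant, and between the mutants 11 rose and 2 fell, with Myh11, the smooth muscle myosin, higher than in wild type by 1.11 and 3.17 on the log2 scale. Tagln, Cnn1, Pdgfrb, Pecam1 and Kdr, also on the list, were detected on fewer than 3 arrays or blank and were not tested. The part of other cell types in the Bok difference was not tested.

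**Figure D2:**
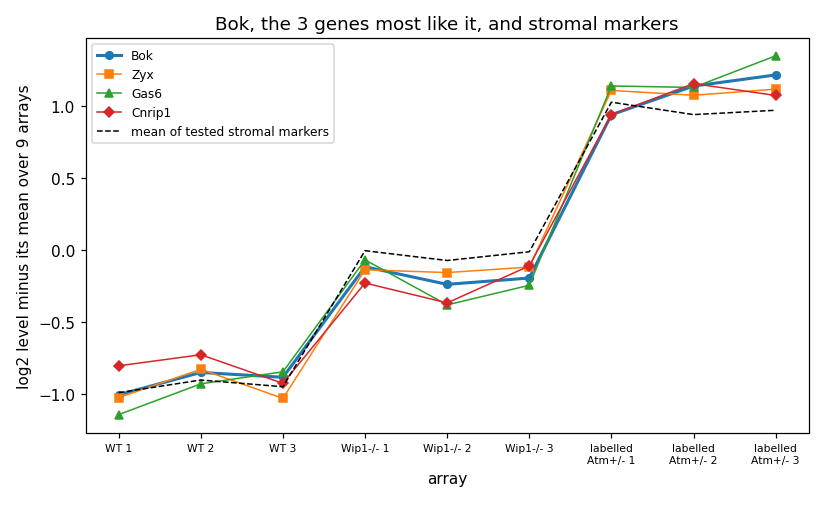
Log2 level minus its mean over the 9 arrays, in array order by genotype, for Bok, the 3 genes with the most similar pattern and the mean of the 14 tested stromal markers. All 5 lines take 1 level in each genotype, with Bok between -1.01 and -0.85 in wild type and between 0.94 and 1.22 in the arrays labelled Wip1-/- Atm+/-. Cnrip1 was near background in wild type and Wip1-/-.

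Bak1, the second pore-forming member with a probe, was lower in Wip1-/- in the authors' processed table. This probe read 153.2, 129.9 and 156.3 units in wild type, 122.0, 113.3 and 113.4 in Wip1-/-, and 128.6, 128.5 and 125.1 in the arrays labelled Wip1-/- Atm+/-. All 3 Wip1-/- arrays lay below all 6 others. In a fit of limma to the log2 values of all 45279 probes of that table, where 7.99% of probes were called in this comparison, Bak1 fell by 0.33 (SE 0.09, adjusted p = 0.0296). The difference of the arrays labelled Wip1-/- Atm+/- from wild type was -0.20 (adjusted p = 0.203 by limma, 13.1% of probes called). No detection p-value was available for this probe, and of probes within 5% of its level on the same array, none were detected on 2 of the 3 Wip1-/- arrays and all were detected on 2 of the 3 wild type arrays. The call ended, with adjusted p of up to 0.113 by limma, when wild type array 1 or 3 or any Wip1-/- array was left out.

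Among the BH3-only members, Bcl2l11 was lower in Wip1-/- at its brightest probe. ILMN_1229255 read 6.84, 7.10 and 6.59 in wild type, 6.10, 5.91 and 6.32 in Wip1-/-, and 6.81, 6.32 and 6.75 in the arrays labelled Wip1-/- Atm+/-. The Wip1-/- arrays lay below every wild type array, and 1 of them matched the lowest of the other mutant. Bcl2l11 fell by 0.74 in Wip1-/- (SE 0.18, a 1.67-fold difference, adjusted p = 0.0161 by limma). In the arrays labelled Wip1-/- Atm+/- it differed from wild type by -0.22 (adjusted p = 0.399 by limma) and from Wip1-/- by 0.52 (adjusted p = 0.0428). The first call ended without wild type array 2, Wip1-/- array 1 or Wip1-/- array 2 (adjusted p of up to 0.0598 by limma), and the last ended under 9 of 18 alternatives (adjusted p of up to 0.155). The other 2 tested Bcl2l11 probes differed by -0.16 and -0.22 between Wip1-/- and wild type and passed the test in no comparison. The last Bcl2l11 probe was detected on 2 Wip1-/- arrays only and was not tested. The genes with the most similar pattern were Col23a1 (0.121), Tbx1 (0.127) and Cacnb1 (0.136).

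Bid, which caspase 8 cleaves to link death receptors to mitochondria, was lowest in the arrays labelled Wip1-/- Atm+/-. Its probe ILMN_3161878 read 5.84, 5.26 and 5.07 in wild type, 5.51, 5.45 and 5.49 in Wip1-/-, and 4.83, 4.76 and 4.62 in the arrays labelled Wip1-/- Atm+/-. The last 3 values lay below all others, and the probe passed detection on 1 array of wild type, 3 of Wip1-/- and 0 of those labelled Wip1-/- Atm+/-. The fall passed the test of limma against wild type (adjusted p = 0.0165) and against Wip1-/- (adjusted p = 0.00707), with group means of 5.39, 5.48 and 4.74. No fold is given, since the level in the arrays labelled Wip1-/- Atm+/- was not well above background and the lower bound did not exceed 1. The difference from wild type was lost without labelled array 3 (adjusted p = 0.0598 by limma). The second Bid probe was detected on 0 arrays. Genes with a pattern like that of Bid are not named, since most of its values were not above background.

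Spermatogonial markers were also lower in the arrays labelled Wip1-/- Atm+/-. Their summed intensity over 7 tested of 12 listed genes was 1444 to 1718 in wild type, 1929 to 2096 in Wip1-/- and 676 to 774 in the arrays labelled Wip1-/- Atm+/-, and 6 of the 7 fell against wild type, among them Dazl by 1.63 on the log2 scale. The summed intensity of spermatocyte markers, 8 tested of 11 listed, had the same order, at 13453 to 14602, 15837 to 16571 and 11148 to 12228. Their mean log2 level overlapped between wild type (9.42 to 9.51) and Wip1-/- (9.45 to 9.62). In the arrays labelled Wip1-/- Atm+/- 3 of the 8 fell and 0 rose against wild type, among them Meiob, which fell by 1.10. In Wip1-/- 1 rose and 1 fell against wild type. Sycp1 fell there by 0.76 and was higher by 0.83 in the other mutant than in Wip1-/-. The 11 tested spermatid markers summed to 216124 to 227317, 216044 to 219914 and 210455 to 214897. In Wip1-/- 3 of the 11 fell and 0 rose against wild type (27.3%, against 18.0% of all genes). Among them were Tnp2, by 0.49, and Hils1, by 0.47. In the arrays labelled Wip1-/- Atm+/- 1 fell and 0 rose against wild type (9.09%, against 28.2%). Against Wip1-/- 3 rose and 2 fell there (45.5%, against 33.6%). The part of germ cell makeup in the Bid and Bcl2l1 differences was not tested.

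Bad, a BH3-only protein held in the cytosol by 14-3-3 proteins when phosphorylated, did not pass the test in any comparison. Its probe read 10.50, 10.14 and 10.02 in wild type, 10.44, 10.31 and 10.32 in Wip1-/-, and 10.08, 10.21 and 9.78 in the arrays labelled Wip1-/- Atm+/-. The arrays labelled Wip1-/- Atm+/- lay below Wip1-/- without overlap, by 0.33 (adjusted p = 0.126 by limma), and overlapped with wild type. Median scaling in place of quantile normalization made this a call, with an adjusted p of 0.0130 by limma, on a scale where the median over all genes was -0.21.

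The probes of Bbc3, the gene of the p53 target Puma, disagreed. The probe without scanner values, ILMN_2920736, read 113.2, 126.6 and 120.0 units in the authors' processed table in wild type, 174.6, 166.6 and 181.1 in Wip1-/-, and 194.2, 136.5 and 167.8 in the arrays labelled Wip1-/- Atm+/-. All 6 mutant arrays lay above the 3 wild type arrays. In the same fit of limma as for Bak1, the difference from wild type was 0.54 in Wip1-/- (SE 0.11, adjusted p = 0.00378) and 0.46 in the arrays labelled Wip1-/- Atm+/- (adjusted p = 0.00750). Of probes within 5% of its level on the same array, at most 2.76% were detected on any wild type array and at least 93.1% on each mutant array, so its wild type level lies at background and the size of these differences is uncertain. The second call was lost without labelled array 1 (adjusted p = 0.0516 by limma). The other 2 Bbc3 probes differed in the opposite direction between Wip1-/- and wild type in that table, ILMN_2690621 by -0.18 and ILMN_2690620 by -0.25, and neither passed the test. On the normalized scanner scale ILMN_2690621 differed by -0.33, and neither probe passed the test there. Each was detected on 3 of 9 arrays, and ILMN_2690620 on 0 of the Wip1-/- arrays, so no size is given for it on that scale. The sizes given for these probes are uncertain.

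**Figure D3:**
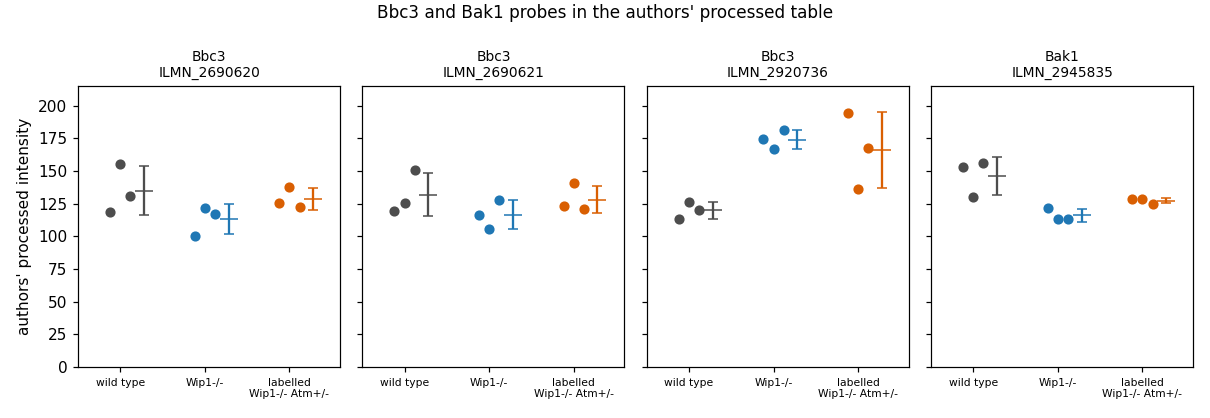
Intensity in the authors' processed table, on a linear axis from 0, for the 3 Bbc3 probes and the Bak1 probe on each array, with bars for the mean ± SD of 3 arrays. One Bbc3 probe has means of 120, 174 and 166 in the 3 genotypes while the other pair does not follow it, and Bak1 has means of 146, 116 and 127.

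**Figure D4:**
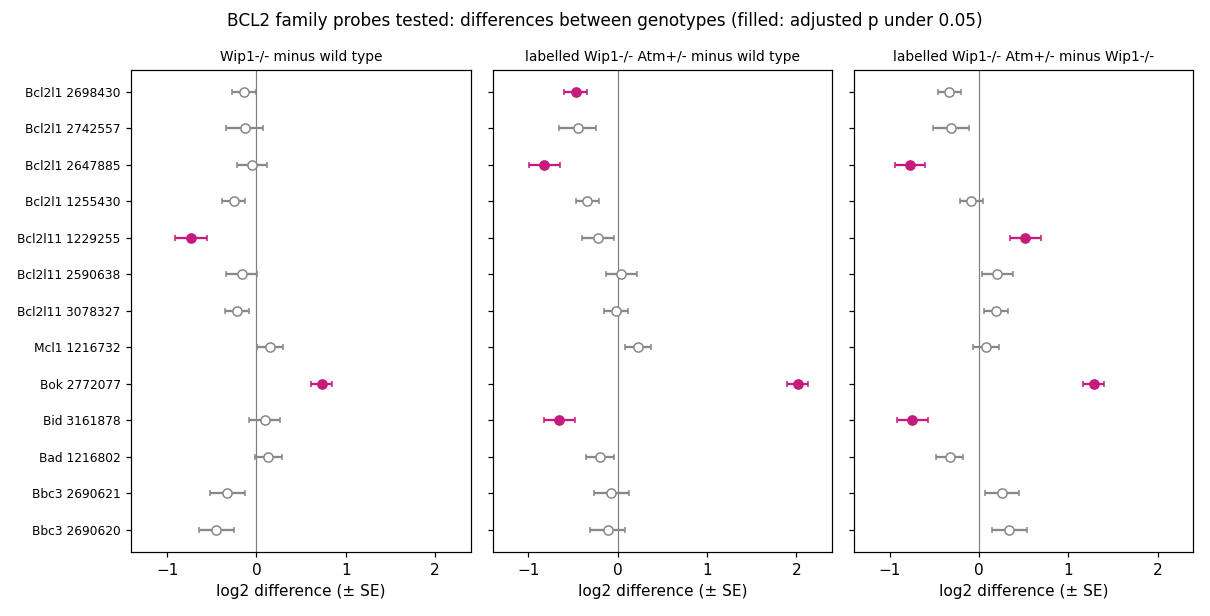
Log2 difference ± SE of each of the 13 tested member probes in the 3 comparisons, with filled points for an adjusted p under 0.05 in limma. Bok lies at 0.73, 2.01 and 1.28. In the first panel the brightest Bcl2l11 probe lies as far to the left as Bok to the right (-0.74), and its other probes lie at -0.16 and -0.22. The 4 Bcl2l1 probes all lie below 0 in the middle panel.

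Beyond the members, 75 other genes of the apoptosis machinery were listed and 45 were tested. In Wip1-/- 4 of the 45 rose and 1 fell against wild type (11.1%, against 18.0% of all genes), and 11 rose and 1 fell under median scaling. For the arrays labelled Wip1-/- Atm+/-, 7 were higher and 5 lower than in wild type (26.7%, against 28.2%), a split that turned with the scaling, to 6 higher and 11 lower under median scaling and 8 higher and 3 lower under cyclic loess. Against Wip1-/- 4 rose and 13 fell in these arrays (37.8%, against 33.6%), and 3 rose and 17 fell under median scaling, 6 and 9 under cyclic loess. The 13 that fell included 5 of the 7 tested genes of the apoptosome and caspase group, where 17.3% of all genes were called lower. Of these 5, Htra2 (adjusted p = 0.0425 by limma) was lost under 8 of 18 alternatives, and the fall of Apaf1 was favoured by the detection filter.

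**Figure D5:**
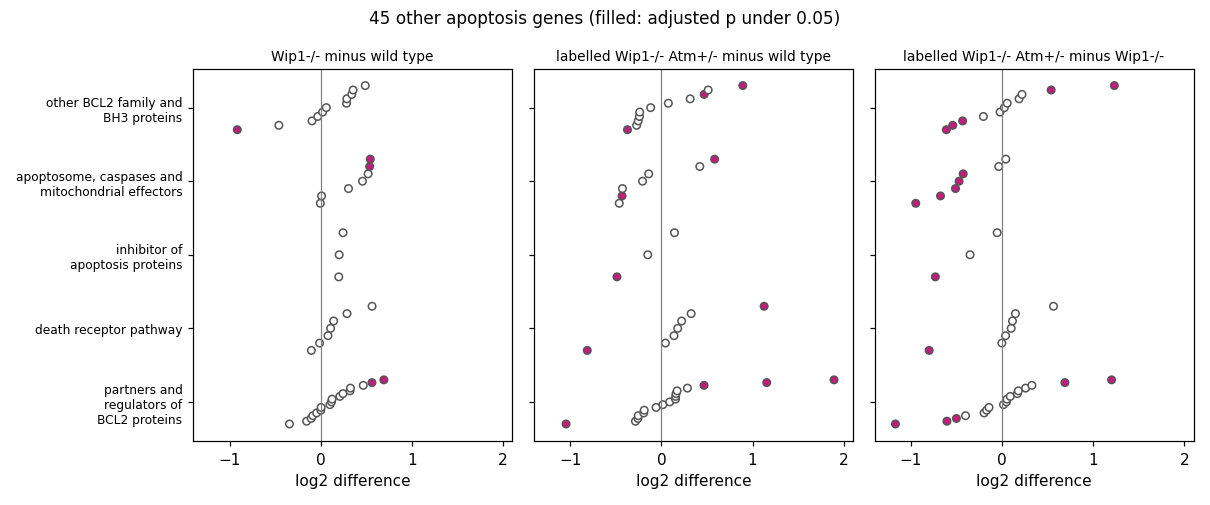
Log2 difference of 45 other apoptosis genes in the 3 comparisons, by functional group, with filled points for an adjusted p under 0.05 in limma. The partner gene Vdac1 is the farthest to the right in the middle panel at 1.89. In the right panel 5 of 7 genes of the apoptosome group are filled and below 0, where 17.3% of all genes were called lower.

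In the apoptosome and caspase group, Casp9, the initiator caspase of the mitochondrial pathway, rose in Wip1-/- by 0.54 (adjusted p = 0.0199 by limma) and rose by 0.58 in the arrays labelled Wip1-/- Atm+/- (adjusted p = 0.00832). The first of these was lost without wild type array 1, Wip1-/- array 1 or Wip1-/- array 3 (adjusted p of up to 0.0705). Apaf1, the scaffold on which caspase 9 is activated, passed detection on 3 arrays of Wip1-/- and 0 of those labelled Wip1-/- Atm+/-, where it was at least 1.47-fold lower (adjusted p = 0.00116 by limma). Both Apaf1 probes met the detection filter mostly through Wip1-/-, where they are highest, so this fall was favoured by the filter. Diablo, which releases caspases from their inhibitors, fell by 0.51 (adjusted p = 0.0101 by limma) and Casp2 fell by 0.68 (adjusted p = 0.00948) between the same groups, while the second Casp2 probe differed by 0.16 (adjusted p = 0.450). Casp2 also rose by 0.54 in Wip1-/- against wild type with an adjusted p of 0.0483 in limma, a call that ended under 10 of 18 alternatives.

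Of 3 tested inhibitor of apoptosis genes and 7 of the death receptor pathway, 0 passed the test in Wip1-/- against wild type. In that comparison 18.0% of all genes were called, and Fasl had an adjusted p of 0.0980 by limma. Birc5, which encodes the mitotic protein survivin, fell in the arrays labelled Wip1-/- Atm+/- by 0.49 against wild type (adjusted p = 0.0112 by limma) and by 0.73 against Wip1-/- (adjusted p = 0.000856). Its 3 probes had the same direction in both. Fasl, the ligand of the death receptor Fas, rose in these arrays (adjusted p = 0.00264 by limma), from a mean of 5.50 in wild type, where it was detected on 1 of 3 arrays, to 6.62, so the size of the rise is uncertain. Tnfrsf10b, the mouse TRAIL receptor, fell by 0.81 (adjusted p = 0.000880 by limma), and its second probe fell by 1.05.

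The list of other BCL2 family proteins had 11 tested genes. Of these, against wild type, 1 fell in Wip1-/- (9.09%, against 18.0% of all genes). In the other mutant 2 rose and 1 fell (27.3%, against 28.2% of all genes). Of 17 tested partners and regulators, 2 rose in Wip1-/- (11.8%), and 3 rose and 1 fell in the other mutant (23.5%). Between the mutants 2 of the 17 rose and 3 fell (29.4%). Vdac1, the mitochondrial outer membrane channel that binds BCL2 proteins, had the same order of genotypes as Bok. Its log2 levels were 7.16, 7.07 and 6.96 in wild type, 7.90, 7.77 and 7.59 in Wip1-/-, and 8.86, 8.99 and 9.02 in the arrays labelled Wip1-/- Atm+/-, with no overlap. It rose by 0.69 in Wip1-/- (adjusted p = 0.00352 by limma) and by 1.89 in the arrays labelled Wip1-/- Atm+/- (adjusted p = 6.62e-07). The second Vdac1 probe, undetected in wild type, was at least 1.88-fold higher in the latter (adjusted p = 0.000692 by limma). That probe could meet the detection filter only through the mutant arrays, so its call was favoured by the filter. Ywhab, a 14-3-3 protein, was higher by 1.16 on the log2 scale in the arrays labelled Wip1-/- Atm+/- than in wild type, and Usp9x, a deubiquitinase that stabilizes Mcl1, fell by 1.05. Bcl2l2, a protective relative of Bcl2l1 needed for spermatogenesis in mice, rose by 0.89 at its brightest probe (adjusted p = 0.00193 by limma), while its second probe differed by -0.23. Bcl2l14 fell by 0.92 in Wip1-/- at its brightest probe (adjusted p = 0.0255 by limma), while its second probe differed by 0.09. This call ended under 5 of 18 alternatives, with adjusted p of up to 0.102. In the arrays labelled Wip1-/- Atm+/- the brightest Bcl2l14 probe was higher by 1.23 than in Wip1-/- (adjusted p = 0.00269 by limma). That call held under all 18 alternatives, while the second probe differed by 0.008.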

How the data were processed

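Total RNA of spermatids was made into biotinylated cRNA and hybridised, per the labels' protocols. The deposited scanner table holds, per the file headers, an intensity without normalization and a detection p-value for each probe and array. The authors' processed table holds intensity on a linear scale, and by its values it was quantile normalized without removal of background. The sources used here name no scanner software. Detection p-values that stood as whole numbers (895 cells) were read as thousandths.

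Scanner intensities of 43582 probes (1697 others had blank cells) went through neqc (limma 3.58.1, R 4.3.3), which corrects background and applies quantile normalization, with an offset of 16 that shrinks fold changes of dim probes. Quantile normalization removes differences in total RNA. Probes detected (p below 0.05) on at least 3 arrays were fitted with lmFit and eBayes over all 9 arrays (6 residual and 5.12 prior degrees of freedom), and two-sided p-values were adjusted by Benjamini-Hochberg (threshold 0.05). Genes are counted by their brightest detected probe. Member probes with blank scanner cells were tested in limma on log2 of the authors' processed intensity over all 45279 probes. The fit was tested on simulated data. In the platform annotation 34885 probes had 1 symbol, 18 had several and 10376 had none, and the RefSeq gene table of GRCm38.p6 gave chromosomes. The number of arrays limits precision.

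The members, gene lists and tests were chosen with earlier results of these data known. Named in the text are all members, up to 3 called genes a list and comparison with the largest change (1 with the smallest p where none was called), Ppm1d and Atm, the 3 genes most like each member that the F test called and whose means span at least 0.5 (not given for Bid), and up to 2 called markers a list. Not every gene that the rule allows is described. Tagln, Cnn1, Pdgfrb, Pecam1 and Kdr are named because they were not tested. Alternatives were median scaling, cyclic loess, no background correction, the authors' processed table, 2 other detection filters, the brightest probe alone, only the groups compared, a replicate block and leaving out each array.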

Additional observations from a re-analysis of the deposited data

How the results depend on the processing

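The count of members called in Wip1-/- against wild type was 2, and 1 to 2 when an array was left out. The count of members differing among the genotypes was 4, and 2 to 4 when an array was left out. Of the other apoptosis genes 5 were called in Wip1-/-, against 12 with median scaling, 2 with no filter on detection and 1 to 5 when an array was left out. Of all genes 1902 were called in that comparison, and 1077 to 1886 when an array was left out. The cause of these differences was not tested. The other totals of calls in both directions stayed within 1.5 times their value, and no result reversed, but counts in 1 direction moved further with the scaling. Under median scaling 1701 genes were higher in Wip1-/- than in wild type (1088 with quantile normalization), 2343 were lower in the arrays labelled Wip1-/- Atm+/- than in wild type (1390) and 3409 were lower there than in Wip1-/- (1828). Median scaling moved the median log2 difference of all genes to 0.11, -0.15 and -0.21 in the 3 comparisons, cyclic loess moved it to 0.04, 0.03 and 0.03, and median scaling moved the share of calls that were higher from 57.2%, 53.3% and 48.5% to 72.1%, 35.5% and 26.1%.

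Deviations of same-numbered arrays correlated at -0.331 to 0.278, and those of differently numbered arrays at -0.240 to 0.212. With so few arrays a genotype, these values cannot show whether the numbers pair the arrays. With the replicate block, 2, 3 and 2 members were called, against 2, 3 and 3 without it, 5, 11 and 16 other apoptosis genes, and 1622, 2771 and 3327 genes in all. The replicate block left 4 members in the F test and 3 calls of the probes with blank scanner values. A slide block was not run, since the column names give no slide. Bbc3, Bid and 2 Bcl2l11 probes lay near background, where differences are shrunken and small ones are not detectable.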
